A study of Homo sapiens with 24 samples.

Results

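The 6 genes CX3CL1, CCL20, CCL5, CXCL9, CXCL10 and CXCL11, which encode chemokines that draw T cells and monocytes, were followed through 4 genomic windows in a ChIP-seq study of histone H3 lysine 27 acetylation (H3K27ac) in human endothelial lines. The windows were set by position on the hg19 build: chr16:57390001-57430000 for CX3CL1, chr2:228650001-228700000 for CCL20, chr17:34180001-34230000 for CCL5, and chr4:76910001-76980000 for CXCL9, CXCL10 and CXCL11 together, 210 kb in all. Every peak in these windows with a -log10 q of 2 or more in the 20 libraries of immunoprecipitated chromatin was taken. Those libraries held 111 such peaks in the windows. Merging peaks that overlapped between libraries by at least 1 bp gave 17 regions, of 89609 in the whole series: 2 in the CX3CL1 window, 3 in the CCL20 window, 4 in the CCL5 window and 8 in the CXCL9/CXCL10/CXCL11 window. Regions are numbered below in order of position within each window. The 4 input libraries, chromatin that was not immunoprecipitated, had 0 peaks in the windows, also without the q threshold.

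TeloHAEC are aortic endothelial cells immortalized with telomerase and grown in a medium that contains vascular endothelial growth factor (VEGF). Eahy926 is a hybrid line of endothelial character grown in DMEM with serum and without VEGF. Both are parental lines, and each condition rests on 2 libraries of 1 line. Each line had 2 untreated control libraries of library day 0, named 0.1 and 0.2, and 2 of library day 1, named 1.1 and 1.2. Also on day 1, each line had 2 libraries of cells given interleukin 1 beta (IL1b, 10 ng/ml) and 2 of cells given tumor necrosis factor alpha (TNFa, 10 ng/ml), each for 24 h. The last pair of each line changed VEGF: for 24 h it was left out of the TeloHAEC medium or added to the Eahy926 medium. The inputs, 2 per line, were untreated and of day 0. The number after the dot is a biological replicate per the labels. The 2 library days are the days on which libraries were prepared, so treatments were compared with day 1 controls.

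H3K27ac lies on nucleosomes at active promoters and enhancers, so a peak says that the nearby chromatin carries the mark and not how much RNA is made. CCL20 is the ligand of CCR6, a receptor of memory T cells and dendritic cells. CCL5, also called RANTES, draws T cells and monocytes. CXCL9, CXCL10 and CXCL11 are neighbouring genes for the ligands of CXCR3 on activated T cells, known for their induction by interferons. CX3CL1, or fractalkine, is made as a membrane-tethered protein on endothelium and binds CX3CR1 on monocytes and cytotoxic lymphocytes. In endothelial cells IL1b and TNFa signal through NF-kB, which binds regulatory DNA of many chemokine genes.

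The deposited peaks are on hg19 and the gene table at hand is on GRCh38.p14, so gene starts are not placed among the peaks and regions are named by hg19 position. By order in the gene table, CX3CL1 lies between CCL22 and CCL17, CCL20 between SCYGR8 and DAW1, and CCL5 between HEATR9 and RDM1. CXCL9, CXCL10 and CXCL11 lie between SDAD1 and NUP54, and ART3 overlaps CXCL10 and CXCL11 there, so a peak of that window cannot be given to 1 gene. For 4 of the 6 genes the table of RefSeq promoters held a sequence, and the 250 bases before each start are shown because these loci carry the results below. CX3CL1 and CCL5 had no entry. Capitals mark matches to the motifs searched on both strands: the NF-kB consensus, GAAA repeated after a gap of 2 bases, TTCNNNGAA and TGANTCA (AP-1). The sequences are from GRCh38.p14, written 5′ to 3′ on the strand of the gene, chr2:227813592-227813841 (plus strand) for CCL20, and on the minus strand chr4:76007510-76007759 for CXCL9, chr4:76023498-76023747 for CXCL10 and chr4:76036071-76036320 for CXCL11.
CCL20: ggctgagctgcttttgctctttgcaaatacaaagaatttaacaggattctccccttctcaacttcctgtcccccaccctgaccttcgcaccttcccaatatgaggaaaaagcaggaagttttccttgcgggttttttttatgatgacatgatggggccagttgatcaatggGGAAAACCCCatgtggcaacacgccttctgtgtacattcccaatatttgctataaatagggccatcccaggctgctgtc
CXCL9: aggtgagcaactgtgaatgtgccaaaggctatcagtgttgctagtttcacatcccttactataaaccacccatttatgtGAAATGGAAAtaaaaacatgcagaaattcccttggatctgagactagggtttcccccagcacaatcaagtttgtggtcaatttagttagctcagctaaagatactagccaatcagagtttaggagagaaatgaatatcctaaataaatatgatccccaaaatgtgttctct
CXCL10: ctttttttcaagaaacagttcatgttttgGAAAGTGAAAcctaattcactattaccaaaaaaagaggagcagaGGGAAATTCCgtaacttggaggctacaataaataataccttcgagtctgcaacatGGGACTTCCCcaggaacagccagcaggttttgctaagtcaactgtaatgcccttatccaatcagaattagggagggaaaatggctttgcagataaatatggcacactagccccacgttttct
CXCL11: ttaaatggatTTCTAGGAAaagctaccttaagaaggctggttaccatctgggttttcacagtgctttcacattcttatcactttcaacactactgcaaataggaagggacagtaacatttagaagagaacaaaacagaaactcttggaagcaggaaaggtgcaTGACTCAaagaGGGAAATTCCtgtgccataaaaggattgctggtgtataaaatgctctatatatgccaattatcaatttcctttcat

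The NF-kB consensus was found in 3 of the 4 sequences and in 9.96% of the 35116 promoters in the table over the same length. CCL20 held 1 match 79 to 70 bases before its start, and CXCL11 held 1 match 76 to 67 bases before its start. CXCL10 held 2, at 177 to 168 and at 122 to 113 bases before its start, the second of which reads as a match on both strands. The GAAA repeat was found in CXCL9, 171 to 162 bases before the start, and in CXCL10, 221 to 212 bases before it, and in 3.02% of all promoters. CXCL11 alone of the 4 held TTCNNNGAA, 240 to 232 bases before its start, and TGANTCA, 87 to 81 bases before it, and each of these motifs was in 6.57% of all promoters. These are matches of letters only, and the peak positions on hg19 were not laid over them.

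Before scaling, ChIP libraries of day 0 held 18387194 to 21135399 tags and peaks over 34.0 to 40.3 Mb, and those of day 1 held 3843129 to 7122108 tags and peaks over 13.2 to 30.1 Mb. A total of 3 libraries stood apart with short covered lengths: TeloHAEC control 1.1 at 13.2 Mb, which also had the fewest tags, TeloHAEC 1.1 without VEGF at 14.1 Mb and Eahy926 IL1b 1.2 at 14.4 Mb. TeloHAEC control 1.2 covered 22.98 Mb and the 4 cytokine libraries of TeloHAEC 24.6 to 30.1 Mb. Values without control 1.1, without scaling and with equal covered length are given below where they change a call or the presence of a peak. All 6 endothelial marker loci (CDH5, KDR, TEK, VWF, ERG, TIE1) were covered in every library of both lines. Of the leukocyte markers, the T-cell locus CD3E was at 0 in every library, CD14 reached 818 scaled bp in TeloHAEC and 847 in Eahy926, and PTPRC was covered in every library at 628 to 2841 scaled bp. The hepatocyte locus ALB was at 0 in every library.

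Covered length below is the number of bp under peaks, adjusted for how much of the genome the peaks of that library covered in all, and is given as scaled bp. The CCL20 window was covered in all 20 libraries, from 1549 to 3536 scaled bp. The CXCL9/CXCL10/CXCL11 window was covered in all 10 TeloHAEC libraries and in 8 of 10 Eahy926 libraries. Peaks in the CCL5 window were found in 5 libraries, all of them treated with a cytokine, and peaks in the CX3CL1 window in 4 libraries, all of TeloHAEC. The peaks also differed in strength. Ranked by pileup (the number of stacked fragments at the summit) within its own library, the strongest peak of the CCL20 window stood in the top 0.173 to 6.94% of all peaks, with a median of 0.809%. The strongest peaks of the other windows stood at 29.9 to 96.3% for CXCL9/CXCL10/CXCL11, 62.0 to 95.6% for CCL5 and 72.4 to 95.2% for CX3CL1. Outside CCL20, then, most values rest on peaks of few fragments, from 5 to 12 in the CCL5 window and from 6 to 9 in the CX3CL1 window. Highest pileups are also given per 1000000 tags of the library, as scaled pileup.

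**Figure D1:**
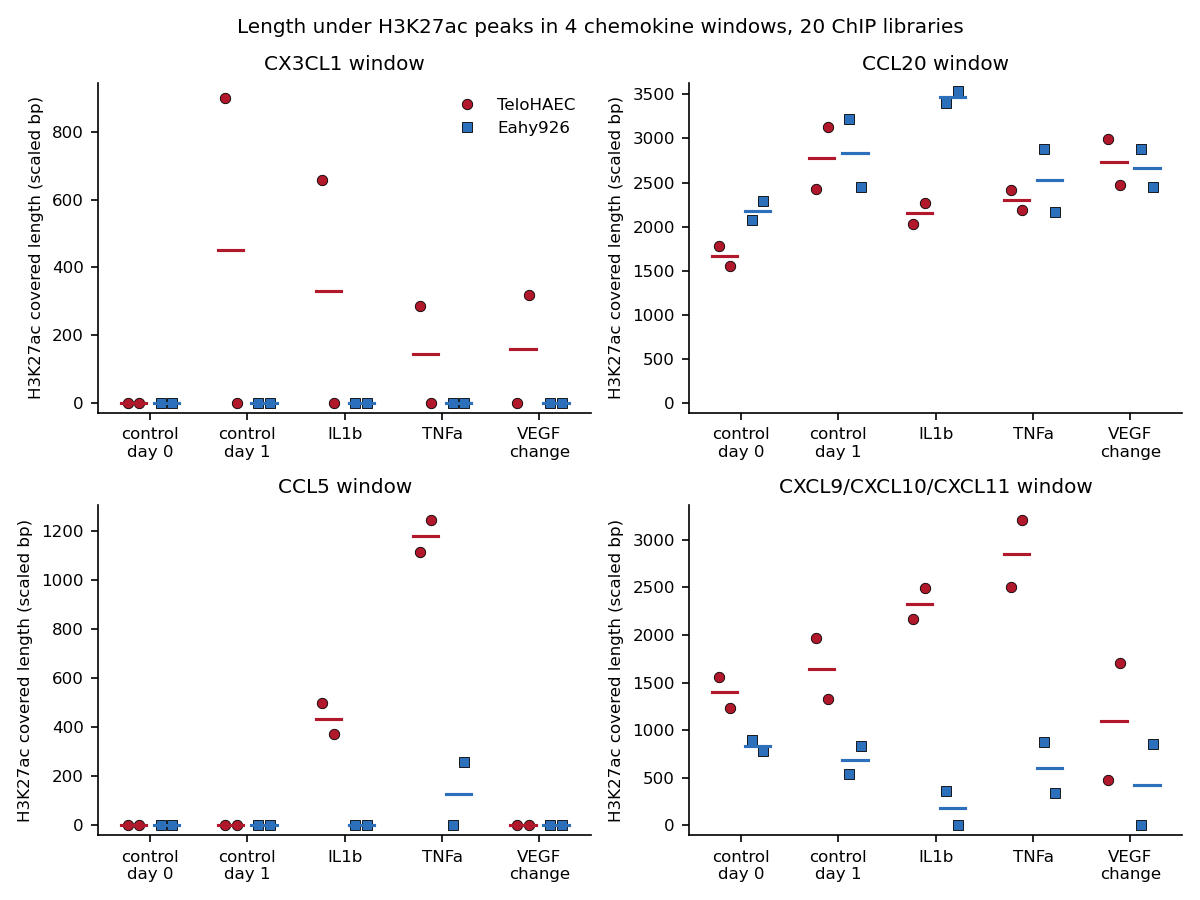
Scaled covered length in bp (y axis) in each window by condition (x axis) for the 20 ChIP libraries; circles are TeloHAEC libraries, squares are Eahy926 libraries and short lines are means of 2 libraries. The CCL5 window lay at 0 in every library without a cytokine, and the 4 TeloHAEC cytokine libraries lay between 373 and 1246 scaled bp.

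**Figure D2:**
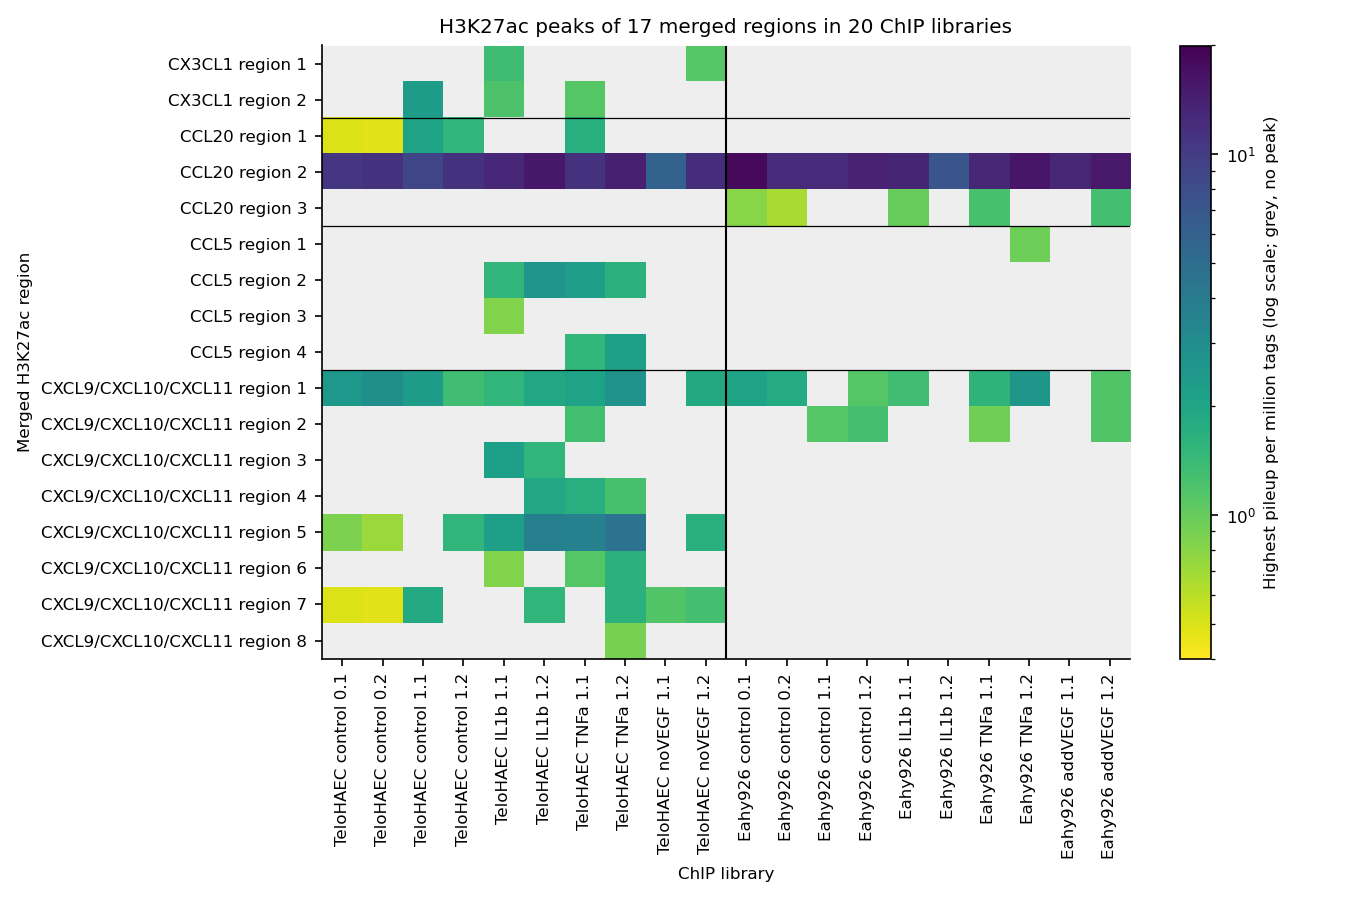
Scaled pileup, in fragments per 1000000 tags (colour, log scale) of each of the 17 merged regions (rows) in each of the 20 ChIP libraries (columns); grey marks no peak and the vertical line parts TeloHAEC from Eahy926. CCL20 region 2 is filled in every library, and regions 3 to 8 of the CXCL9/CXCL10/CXCL11 window are filled only in TeloHAEC.

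For tests the windows were split into 21 bins of 10 kb, of which 13 held a peak and 4 passed the filter of at least 500 bp before scaling in at least 2 libraries: 1 in the CCL20 window, 3 in the CXCL9/CXCL10/CXCL11 window, and none in the CCL5 or CX3CL1 window. With limma over all 39412 tested bins, 0 of these 4 member bins were called (adjusted p under 0.05) in TeloHAEC with IL1b, where 4.29% of all bins were called, and 0 with TNFa, where 3.55% were. In Eahy926 0 were called with IL1b (0.794% of all bins), TNFa (1.21%) or VEGF (0.259%), and in TeloHAEC without VEGF 0 were called (1.67%). At an unadjusted p under 0.05 these 6 counts were also 0. The difference between lines in the response gave 0 called member bins for IL1b (2.61% of all bins) and TNFa (1.64%), and 0 at an unadjusted p under 0.05. IL1b against TNFa gave 0 in TeloHAEC (0.662%, and 0 unadjusted) and 0 in Eahy926 (2.29%, and 1 unadjusted). Between the control libraries of the lines 1 of the 4 was called, higher in TeloHAEC, against 43.0% of all bins called and 22.8% called higher.

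The same model was therefore also run without the filter, over 61956 bins that include all 13 member bins with a peak, and, as a choice made after the data were seen, over the 89609 merged regions. Without the filter, 3 of 13 member bins were called in TeloHAEC with IL1b, 2 higher and 1 lower, where 4.07% of all bins were called, 3.25% higher and 0.817% lower. With TNFa 3 were called, all higher, where 3.33% of all bins were called and 2.75% higher. In Eahy926 0 of 13 were called with IL1b (0.702%) or TNFa (1.30%), and 0 at an unadjusted p under 0.05. The difference between lines in the response gave 1 of 13 for IL1b (2.56%) and 2 for TNFa (1.94%), and the line difference in controls gave 1 (32.2%). Over merged regions, 3 of the 17 were called in TeloHAEC with IL1b, 2 higher and 1 lower, where 3.58% of all regions were called, 2.90% higher and 0.674% lower. With TNFa 2 were called, both higher, where 2.91% of all regions were called and 2.41% higher, and 3 by scaled pileup, where 3.59% were called. Eahy926 had 0 of 17 with IL1b (0.711%) and 0 with TNFa (1.19%), with 1 each at an unadjusted p under 0.05. The difference between lines in the response gave 2 of 17 for IL1b (2.40%) and 2 for TNFa (1.94%), and IL1b against TNFa in TeloHAEC gave 2 (1.51%).

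None of these calls is independent support. Each called member bin or region entered the fit through peaks in the groups where it was high and was at 0 in the groups it was compared with, so it had to differ. Groups with both libraries at 0 also have no spread between libraries. For these loci, at CCL5, at regions 3, 4 and 6 of the CXCL9/CXCL10/CXCL11 window and at region 1 of the CCL20 window, the values below are therefore a description, with differences in log2(scaled bp + 200) and no p. Added bp understate changes of short peaks on this scale.

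CCL20, the CCR6 ligand, had the one locus with strong acetylation in both lines. Region 2 of its window, chr2:228681419-228684502, was present in all 20 libraries, with a highest pileup of 30 to 342 fragments and 3.35 to 6.67 times the local background in the authors' fold enrichment. In TeloHAEC the scaled pileup was 10.7 and 11.2 in the day 0 controls, 8.85 and 11.2 in the day 1 controls, 12.7 and 15.6 with IL1b, 11.3 and 14.2 with TNFa, and 5.80 and 12.04 without VEGF. Eahy926 libraries held 18.2 and 12.6 on day 0, 12.5 and 14.02 in day 1 controls, 13.3 and 7.18 with IL1b, 13.2 and 15.8 with TNFa, and 13.2 and 15.4 with VEGF. The treated and control libraries of day 1 overlapped in Eahy926, and in TeloHAEC the 4 cytokine values lay above both day 1 control values by a small margin, 11.3 against 11.2 at the nearest.

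In covered length the 10-kb bin from 228680001 held 1898 and 2755 scaled bp in the TeloHAEC day 1 controls, 2032 and 2271 with IL1b, and 2108 and 2189 with TNFa, so both cytokine groups lay within the range of the controls. The log2 difference was -0.08 for IL1b (95% interval -0.55 to 0.38, adjusted p = 0.99, limma) and -0.08 for TNFa (-0.55 to 0.38, adjusted p = 1). These signs turned with the scaling, to 0.46 for IL1b and 0.31 for TNFa in scaled pileup and to 0.49 and 0.46 without scaling, where the median of all tested bins itself moved to 0.33 and 0.32. In Eahy926 the same bin held 3223 and 2453 scaled bp in day 1 controls, 3066 and 3536 with IL1b, and 2471 and 2171 with TNFa. The log2 difference was 0.21 for IL1b (-0.25 to 0.67, adjusted p = 0.98) and -0.26 for TNFa (-0.72 to 0.20, adjusted p = 1), and no direction held under every scaling. Neither cytokine gave a called change at CCL20 region 2 in either line. The controls of the lines differed by -0.30 (TeloHAEC minus Eahy926, adjusted p = 0.13), which was called without TeloHAEC control 1.2 (-0.42, adjusted p = 0.036).

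CCL20 region 2 was made of 2 adjacent peaks with a gap, chr2:228683046-228683154, that only 2 of 20 libraries bridged, both of them TeloHAEC controls of day 0. TeloHAEC control 1.1 had the second part alone, since its first part was listed with a pileup of 16 and a -log10 q of 1.96, just under the threshold. In the other 17 libraries both parts had a peak. The first part had the higher pileup in 8 of 10 Eahy926 libraries, with a ratio of first to second of 0.890 to 1.67 and a median of 1.36. In TeloHAEC it was higher in 4 of 7 libraries, with a ratio of 0.767 to 1.32 and a median of 1.02. The ranges of the lines overlapped. This shape was noticed in the data and was not tested.

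**Figure D3:**
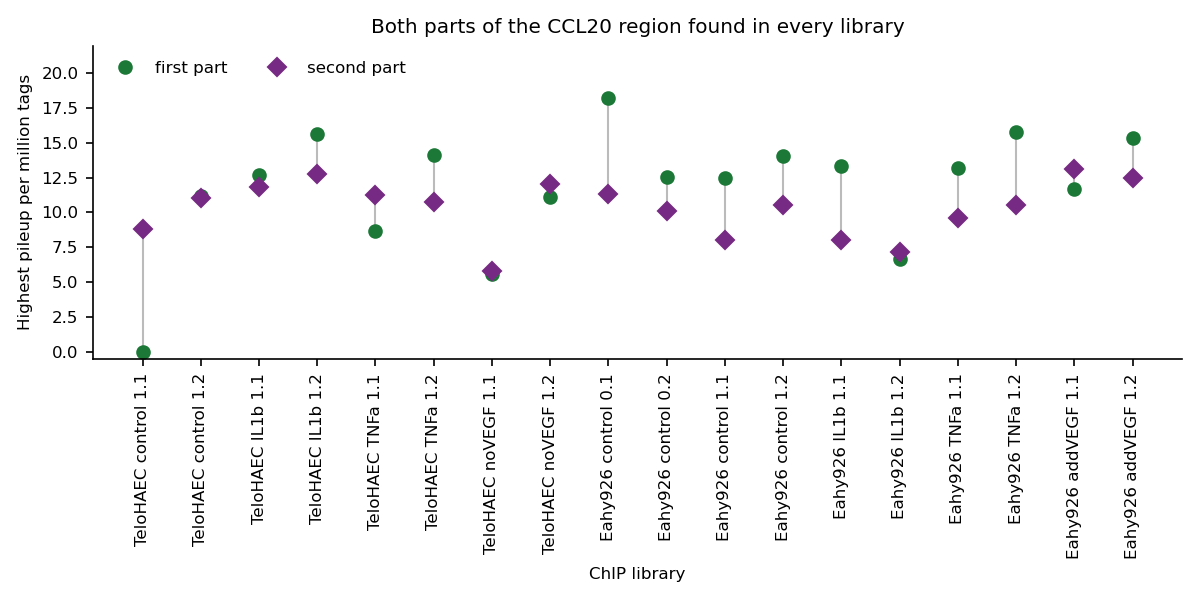
Scaled pileup, in fragments per 1000000 tags (y axis), of the first (circle) and second (diamond) part of CCL20 region 2 in the 18 ChIP libraries whose peaks did not bridge the gap (x axis). In Eahy926 the first part is higher in 8 of 10 libraries, and TeloHAEC control 1.1 has no peak in the first part.

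The other regions of the CCL20 window were weak and each was found in 1 line. Region 1, chr2:228652967-228653335, had peaks in all 4 TeloHAEC control libraries and in TNFa library 1.1, with 8 to 10 fragments, and in no Eahy926 library. Its bin from 228650001 held 188 and 164 scaled bp in the day 0 controls and 524 and 381 in the day 1 controls of TeloHAEC, 0 in both IL1b libraries and in both libraries without VEGF, and 309 and 0 with TNFa. The log2 difference was -1.70 both with IL1b and without VEGF. In the lists as deposited both IL1b libraries and library 1.1 without VEGF had a peak of 5 fragments in this bin, and the differences were -0.47 and -0.80. With equal covered length in every library both were -0.63, and the bin then held a peak in TeloHAEC control 1.1 alone. Region 3, chr2:228699463-228700138, which crosses the end of the window, had peaks in 5 Eahy926 libraries, among them both day 0 controls, and in none of TeloHAEC.

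CCL5 had no peak past the threshold in any of the 8 control libraries of either line or in any of the 4 libraries with changed VEGF, and had peaks in all 4 TeloHAEC libraries with a cytokine. Region 2, chr17:34206972-34208030, carried the pattern. Its peaks covered 288 and 366 bp with IL1b and 462 and 958 bp with TNFa before scaling, in the order of libraries 1.1 and 1.2. The pileup at the summit was 9 and 12 fragments with IL1b and 12 and 9 with TNFa, or a scaled pileup of 1.52, 2.60, 2.25 and 1.61. The authors' fold enrichment was 4.08, 6.20, 5.63 and 4.10. All other 16 ChIP libraries were at 0 in this region, so the TeloHAEC cytokine libraries did not overlap the rest.

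Region 4 of the CCL5 window, chr17:34219028-34219904, had peaks in both TNFa libraries of TeloHAEC, 646 and 463 bp with 8 and 12 fragments, and in no other library. Region 3, chr17:34217012-34217323, was a single peak of 5 fragments in TeloHAEC IL1b library 1.1. The one CCL5 peak of Eahy926 was region 1, chr17:34202235-34202498, with 6 fragments in TNFa library 1.2. Summed over the window, the TeloHAEC mean was 436 ± 89.5 scaled bp after IL1b and 1182 ± 90.7 after TNFa (SD, n = 2 each), and Eahy926 held 0 in both IL1b libraries and 0 and 258 with TNFa.

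Of the 17 regions, 4 had a peak in both TNFa libraries of TeloHAEC and in none of its 4 control libraries, against 1.60% of all regions, and 2 did so for IL1b, against 1.81%. CCL5 region 2 was among both and CCL5 region 4 among the former. As a log2 difference from the day 1 control, region 2 stood at 1.33 with IL1b and 2.06 with TNFa in covered bp, and at 1.59 and 1.54 in log2(scaled pileup + 1). The larger value with TNFa was thus one of covered length and not of pileup. Region 4 stood at 1.84 with TNFa and 0 with IL1b.

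In 10-kb bins the bin from 34200001, which holds regions 1 and 2, held 240 and 373 scaled bp with IL1b and 466 and 840 with TNFa in TeloHAEC, and 258 in Eahy926 TNFa library 1.2. The next bin, from 34210001, held 652 and 406 scaled bp with TNFa, 260 and 0 with IL1b and 0 in every other library. These values rest on weak peaks. At a -log10 q of 5 the log2 difference of the first bin was 0.81 for IL1b and 0.94 for TNFa, against 1.33 and 2.06 at 2, and that of the second was 0.82 for TNFa against 1.84. With equal covered length only IL1b library 1.2 and TNFa library 1.1 kept a peak in the first bin and no library kept one in the second. The TeloHAEC day 0 controls, with 18387194 and 20952578 tags against 4611342 to 5912920 in the cytokine libraries, had no peak in the window also in the lists as deposited. Under the threshold, Eahy926 control 1.2 had 1 peak of 4 fragments, chr17:34202740-34203028.

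Over the 20 libraries the log2 profile of the CCL5 bin from 34200001 was most like that of the bins chr10:93070001-93080000 (Pearson r = 0.987) and chr5:109100001-109110000 (r = 0.968), a likeness carried by the same few libraries above 0. For the CCL20 bin from 228680001 the nearest were chr20:1220001-1230000 (r = 0.952) and chr15:67310001-67320000 (r = 0.934).

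The CXCR3 ligands CXCL9, CXCL10 and CXCL11 shared a window with 8 regions, of which 2 were seen in both lines and 6 only among TeloHAEC peaks. Region 1, chr4:76911289-76912613, at one end of the window, was found in 9 of 10 TeloHAEC and 7 of 10 Eahy926 libraries, with up to 60 fragments in TeloHAEC and 39 in Eahy926 controls of day 0. Region 2, chr4:76917150-76917642, was found in 4 Eahy926 libraries, none of them with IL1b, and in TeloHAEC TNFa library 1.1. The bin that holds both, from 76910001, held 1368 and 577 scaled bp in TeloHAEC day 1 controls, 618 and 469 with IL1b, and 808 and 495 with TNFa. In Eahy926 it held 536 and 839 in day 1 controls, 359 and 0 with IL1b, and 879 and 337 with TNFa. No cytokine or line difference was called in this bin (adjusted p of 0.76 to 1 over these 5 comparisons, limma).

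Region 5, chr4:76932794-76934042, was found in 8 of 10 TeloHAEC libraries and in none of Eahy926. Its scaled pileup in TeloHAEC was 0.870 and 0.716 in the day 0 controls, 0 and 1.52 in the day 1 controls, 0 and 1.67 without VEGF, 2.20 and 3.69 with IL1b, and 3.57 and 4.48 with TNFa. All 4 cytokine libraries lay above all 6 others of the line on this scale. In scaled bp the groups overlapped, at 736 and 1041 with IL1b and 971 and 1075 with TNFa against 465, 370, 0, 747, 0 and 865 in the other libraries. The 2 values of 0 were in libraries 1.1 of the control and of the medium without VEGF, whose deposited lists had peaks of 4 and 5 fragments there, under the q threshold. With equal covered length both of these libraries kept a peak in the bin of region 5, as did IL1b library 1.2 and both TNFa libraries. IL1b library 1.1 and the other TeloHAEC libraries did not.

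**Figure D4:**
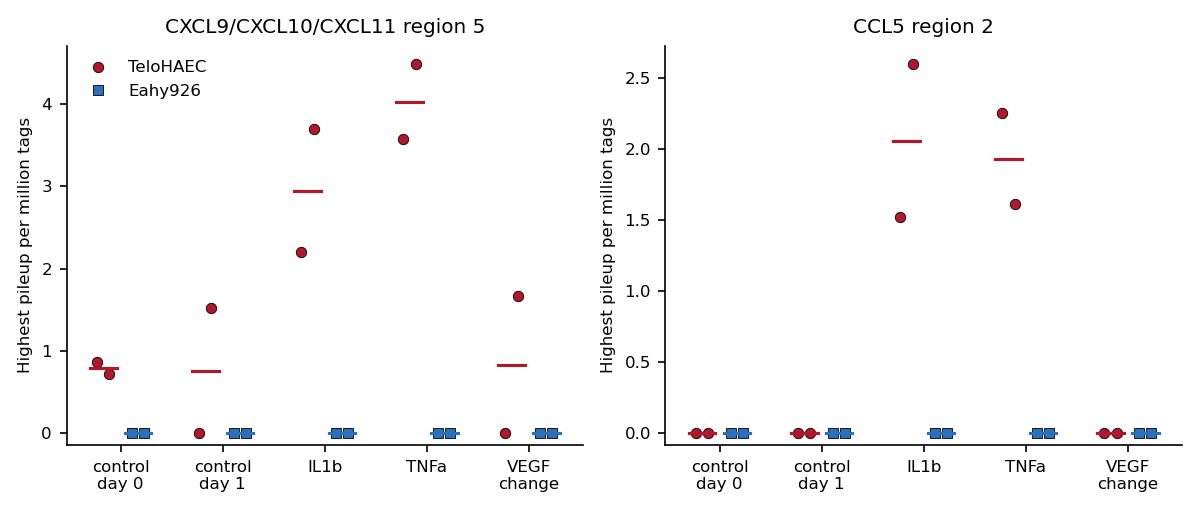
Scaled pileup, in fragments per 1000000 tags (y axis), of CXCL9/CXCL10/CXCL11 region 5 (left) and CCL5 region 2 (right) by condition (x axis); circles are TeloHAEC libraries, squares are Eahy926 libraries and short lines are means of 2 libraries. In region 5 the 4 TeloHAEC cytokine libraries lie between 2.20 and 4.48, above the other libraries of the line, and every Eahy926 library is at 0 in both regions.

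The bin that holds region 5, from 76930001, differed from the TeloHAEC day 1 control by 1.31 with IL1b (95% interval -0.19 to 2.81, adjusted p = 0.35) and by 1.49 with TNFa (-0.01 to 2.99, adjusted p = 0.31), and neither was called. Which control library was used decided this. Without control 1.2 the differences were 2.43 (adjusted p = 0.028) and 2.61 (adjusted p = 0.022), and without control 1.1 they were 0.19 and 0.37. With a -log10 q of 5 they were 2.52 (adjusted p = 0.023) and 2.72 (adjusted p = 0.018). That cut left no peak in either TeloHAEC day 1 control, while both day 0 controls kept one, so these 2 calls are no independent support. In scaled pileup the TNFa difference of 1.66 was called (adjusted p = 0.048), and the share of all bins called on that scale is not given here. Over 11 other settings with all libraries the IL1b difference was 0.21 to 2.52, called in 1. The TNFa difference was 0.39 to 2.72, called in 2. Eahy926 was at 0 in this bin in all 10 libraries, which lowers the pooled spread behind the intervals and p-values of the bin. The line difference in controls was 1.37 (SE 0.49, adjusted p = 0.038), the single member bin called among 4, and the bin passed the filter through TeloHAEC libraries alone. The control groups overlapped, as TeloHAEC control 1.1 was also at 0, and the call was lost without any 1 of 7 of the 8 control libraries, at an adjusted p of up to 0.15. It was also lost with a -log10 q of 5 (0.73, adjusted p = 0.18), with equal covered length (0.40, adjusted p = 0.57), in scaled pileup (0.75, adjusted p = 0.057), with a pseudocount of 1000 bp (0.45, adjusted p = 0.055) and without the filter (1.37, adjusted p = 0.052).

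Between regions 1 and 5 lay a pair of short regions seen only with cytokines. Region 3, chr4:76923039-76923452, had peaks in both IL1b libraries of TeloHAEC, 382 and 281 bp with 13 and 7 fragments. Region 4, chr4:76923617-76924169, 164 bp further on, had peaks in IL1b library 1.2 with 9 fragments and in both TNFa libraries with 9 and 7. The bin from 76920001 that holds both was at 318 and 703 scaled bp with IL1b, 382 and 291 with TNFa, and 0 in the other 16 libraries. The TeloHAEC cytokine libraries did not overlap the others there. The log2 difference of the bin was 1.77 with IL1b and 1.42 with TNFa, and 0.71 and 0.84 at a -log10 q of 5. With equal covered length no library kept a peak in it.

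Region 3 was thus seen with IL1b alone and region 4 in 3 of the 4 cytokine libraries, while in the bin that joins them both cytokines gave peaks in both libraries. Region 6, chr4:76949539-76950213, had peaks in IL1b library 1.1 and in both TNFa libraries of TeloHAEC, with 5, 6 and 9 fragments, and in no other library, while TeloHAEC control 1.2 had a peak of 4 fragments under the threshold. Its TNFa difference was 1.58 in covered bp and 1.24 in log2(scaled pileup + 1).

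Region 7, chr4:76956789-76958221, was found in 7 TeloHAEC libraries, 5 of them without a cytokine, and in none of Eahy926. Its bin from 76950001, which also holds the end of region 6, held 370 and 253 scaled bp in the day 0 controls, 596 and 0 in the day 1 controls, 110 and 279 with IL1b, 0 and 792 with TNFa, and 479 and 379 without VEGF. These groups overlapped, and the log2 difference was -0.05 for IL1b and 0.16 for TNFa (adjusted p = 1 for both). Against Eahy926 controls the bin differed by 1.17 and was not called. It was at 0 in every Eahy926 library and passed the filter through TeloHAEC libraries alone, so this difference is a description with no p. Region 8, chr4:76963338-76963648, was a single peak of 5 fragments in TeloHAEC TNFa library 1.2, with a peak of 4 fragments under the threshold in IL1b library 1.1. Over the whole window TeloHAEC held 1396 ± 232 scaled bp in day 0 controls, 1644 ± 453 in day 1 controls, 1093 ± 868 without VEGF, 2329 ± 230 with IL1b and 2852 ± 499 with TNFa (SD, n = 2 each). All 4 cytokine libraries, at 2166 scaled bp or more, lay above the other 6 of the line, at 1964 or less. Eahy926 means were 179 to 838 scaled bp. By log2 profile over the 20 libraries the bin from 76910001 was most like chr5:138360001-138370000 and chr3:98310001-98320000 (Pearson r = 0.893 for both).

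CX3CL1, the membrane-tethered chemokine, had no peak in any of the 10 Eahy926 libraries and scattered weak peaks in TeloHAEC. Region 2, chr16:57414651-57415223, had peaks in control 1.1, IL1b 1.1 and TNFa 1.1, with 9, 7 and 6 fragments. Region 1, chr16:57401569-57401996, had peaks in IL1b 1.1 with 8 fragments and in library 1.2 without VEGF with 6. The bin from 57410001 held 901 scaled bp in TeloHAEC control 1.1, 303 in IL1b 1.1 and 286 in TNFa 1.1, and 0 in the other 17 libraries. The bin from 57400001 held 356 scaled bp in IL1b 1.1, 320 in library 1.2 without VEGF and 0 elsewhere. No group of 2 had a peak in both libraries in either region, and under the threshold control 1.2 and library 1.1 without VEGF each had 1 more weak peak. No change at CX3CL1 was called in bins with or without the filter or in merged regions. In log2 profile the bin from 57410001 was most like chr8:93530001-93540000 (Pearson r = 0.895) and chr2:161590001-161600000 (r = 0.860).

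Other loci of the same pathway, in windows set by hand on hg19, gave a background for these values. At 5 other chemokine loci (the CCL2 cluster, the CXCL8 and CXCL1 cluster, CXCL12, CXCL16 and CCL17) 20 of 62 bins were tested. With IL1b in TeloHAEC 0 were higher and 1 lower, where 3.43% of all tested bins were higher and 0.858% lower. With TNFa 1 was higher and 1 lower, where 2.96% of all tested bins were higher and 0.596% lower. The median log2 difference of the 20 bins was 0.51 and 0.44, against 0 over all bins tested, while the 4 member bins had medians of -0.07 and 0.04. In Eahy926 0 changed with IL1b, where 0.794% of all bins were called. With TNFa 2 were higher, both in the CXCL8 and CXCL1 cluster of neutrophil chemokines, against 0.944% of all bins. Of these, chr4:74730001-74740000 held a mean of 0 scaled bp in the day 1 controls and 655 with TNFa. Its mean was 518 in the day 0 controls and 448 with VEGF, so the difference depended on the controls used. The bin chr4:74890001-74900000 of the same cluster rose with TNFa in TeloHAEC, from a mean of 624 to 1776 scaled bp (log2 1.27, adjusted p = 0.021). In Eahy926 its mean went from 0 to 320 (log2 1.38). All Eahy926 libraries without TNFa were at 0 in this bin, so the Eahy926 difference is a description and has no p here. CXCL12 was at 0 in every library.

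Between the lines, 9 of the 20 bins of the other chemokine loci were higher in TeloHAEC controls and 1 lower, and of the 28 tested endothelial marker bins 9 were higher and 1 lower. Of all tested bins 22.8% were higher and 20.1% lower. Neither leaving out VEGF in TeloHAEC nor adding it to Eahy926 gave a peak in the CCL5 window. Without the filter 1 of 13 member bins was called in TeloHAEC without VEGF, the CCL20 bin from 228650001 described above, where 1.28% of all bins were called.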

How the data were processed

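H3K27ac ChIP-seq was measured in 20 libraries of 10 groups of 2, with 4 inputs. Reads were aligned to hg19 with Bowtie2 and peaks called with MACS2, per the submitters' processing notes. Peaks were called in each library on its own with MACS 2.1.1.20160309 at a p threshold of 0.001, without a control and with at most 1 tag per position, per the file headers. The deposited lists give each peak's pileup, the authors' signal at the summit, as a number of fragments. They also give the authors' fold enrichment over local background, a ratio, and -log10 p and -log10 q values as deposited. Although a header line says that q is left out, that column was filled and was used here. The depth taken per library is the tag count in the file headers.

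Summits of one peak share an interval, which was counted once. Covered bp per 10-kb bin, at a -log10 q of 2 or more, were scaled to the mean total of 25.1 Mb and filtered for at least 500 unscaled bp in at least 2 libraries. Then log2(bp + 200) was fitted with limma 3.58.1 (R 4.3.3) as 10 group means, with Benjamini-Hochberg adjustment over all bins and calls at an adjusted p under 0.05. These p-values set a difference against the spread between the 2 libraries of a group. That spread is 1 estimate per bin, pooled over all 10 groups and moderated across bins. Groups without a peak lower it. The model was tested on simulated data with normal noise around the mean of each bin. No simulated group lacked spread, so this test does not cover loci where a whole group had no peak. Other steps used Python 3.11.15, pandas 2.3.3 and numpy 2.4.6. Named loci are all members, plus called bins of the comparison lists. The 2 bins outside the windows most like a member bin by Pearson r over 20 libraries were also named. The members and lists were chosen with earlier results of these data known. Windows of all loci were set by hand on hg19. A list of regulator loci is not reported here. The fits over merged regions (overlap of 1 bp or more) were chosen after seeing the data. Other alternatives changed the q threshold, measure, scaling, pseudocount, filter, bin size, controls, block and libraries.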

Additional observations from a re-analysis of the deposited data

Results flagged for a closer look

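In the CX3CL1 window TeloHAEC control 1.1 lay far from the other 3 controls of the line, with 901 scaled bp and a scaled pileup of 2.34 fragments per 1000000 tags against 0 in each of the others. Both values come from the same peak of 9 fragments, and with the other controls at 0 any single peak is set apart. Chance sets apart about 1 in 20 sets of 4 normally distributed values, a rate that does not hold with 3 values at 0. Of 10 sets tested, these 2 were flagged.

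Several cytokine responses differed between the lines in the limma fit of the difference itself (TeloHAEC minus Eahy926, log2 scale of covered bp). These loci entered the fits through peaks in TeloHAEC cytokine libraries alone or, as regions, were defined by those peaks, so the adjusted p restates that choice and the values are no independent support. In bins without the filter the difference for CXCL9/CXCL10/CXCL11 from 76920001 was 1.77 with IL1b and 1.42 with TNFa, and for CCL5 from 34210001 it was 1.84 with TNFa. In merged regions CCL5 region 2 differed by 1.33 with IL1b and 2.06 with TNFa, CCL5 region 4 by 1.84 with TNFa, and CXCL9/CXCL10/CXCL11 region 3 by 1.33 with IL1b. At a -log10 q of 5 the 34210001 difference was 0.82 and those of 76920001 were 0.71 with IL1b and 0.84 with TNFa, each smaller. At that cut only TeloHAEC TNFa library 1.2 had a peak in the bin from 34210001. Only TeloHAEC IL1b library 1.1 and TNFa library 1.1 had one in the bin from 76920001. These values are a description with no p.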

How the results depend on the processing

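Of 4 tested member bins, 0 were called in 10 comparisons and 1 between lines. In TeloHAEC with IL1b the count became 1 with stricter peaks and with 50-kb bins, and 3 without the filter and in merged regions by covered bp or pileup. With TNFa it became 1 with stricter peaks, scaled pileup and 50-kb bins, 3 without the filter, and 2 and 3 in merged regions by covered bp and by pileup. Without VEGF it became 1 without the filter and in merged regions by covered bp. The line difference in response became 1 without the filter and 2 in both merged-region fits for IL1b, and for TNFa 2 without the filter and in both merged-region fits and 1 with 50-kb bins. Between lines it was 0 with stricter peaks, pileup and a pseudocount of 1000 bp, and 2 with lists as deposited, no scaling, a pseudocount of 50 bp and 50-kb bins. IL1b against TNFa in TeloHAEC became 2 in both merged-region fits. Counts are of 13 bins without the filter and of 17 merged regions. By pileup 4.85% of all regions were called with IL1b in TeloHAEC and 1.98% for IL1b against TNFa there. The response differences had 2.97% for IL1b and 2.14% for TNFa. Without VEGF 1.13% were called by covered bp. Shares under the other changed settings are not given here, so counts under them have no rate to be set against. The calls gained without the filter and in merged regions are of loci admitted through the group where they were high. Those gained with stricter peaks are of the bin from 76930001, where both TeloHAEC day 1 controls were then at 0. The 50-kb bins reach past the edges of the CX3CL1, CCL5 and CXCL9/CXCL10/CXCL11 windows, so a call there can rest on peaks outside the windows. Leaving out each library in turn gave 0 to 1 for IL1b and for TNFa in TeloHAEC, the 1 in each being without control 1.2, 0 to 2 between lines, and 0 elsewhere.

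Signs were followed over the settings for the bins from 228680001 and 76930001 and for bins called without the filter. The tested bins from 76910001 and 76950001 were not followed in this way. Among those followed, only uncalled differences of the CCL20 bin from 228680001 turned sign. For TeloHAEC IL1b they became 0.46 by pileup, 0.49 unscaled, 0.18 with quantile scaling, 0.23 with equal covered length, 0.20 with controls of both days and 0.16 without control 1.2, and for TNFa 0.31, 0.46, 0.17, 0.31, 0.20 and 0.16. Without control 1.1 both were -0.33. For Eahy926 IL1b they became -0.40 by pileup and -0.11 both unscaled and with equal covered length, and for TNFa 0.11 by pileup and 0.000597 with controls of both days. The cause was not tested. With the replicate number as a block the counts were 0 in 10 comparisons and 1 between lines, and no call changed. The deviations of libraries with the same number correlated at -0.061 to 0.156, highest between the TeloHAEC day 1 control and the medium without VEGF. Whether such libraries share more than a number was not tested.

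Each group had 2 libraries, and day 1 depths were 3843129 to 7122108 tags. Gains at CCL5 regions 2 and 4 and at CXCL9/CXCL10/CXCL11 regions 3 and 4 rest on peaks of 7 to 13 fragments. CCL5 region 3 rests on 5 fragments in 1 library. A locus at 0 had no listed peak, which does not show that the mark was absent.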
